A study of Mus musculus with 8 samples.

Results

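LSK- identity regions are stretches of open chromatin that were found in every LSK- library and in no LSK+ library, in mice of either genotype. They were chosen by peak presence: the 29829 strongest peaks of each of 8 libraries (the size of the shortest list, ranked by −log10 p) were merged into regions, and a region on chromosomes 1 to 19 was kept when a top peak of all 4 LSK- libraries and of 0 of the 4 LSK+ libraries overlapped it. This gave 1618 regions out of 52052 on chromosomes 1 to 19 (3.11%), and 53238 regions in all once the X chromosome is included. The mirror set, held by 4 of 4 LSK+ and 0 of 4 LSK- libraries, counted 1345 regions (2.58%) and is called LSK+ identity regions here. Since presence and rank in these 8 lists selected the members, both are given as descriptions and no test compares LSK- with LSK+ cells.

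Open chromatin was mapped by ATAC-seq (the transposase Tn5 cuts accessible DNA and leaves adapters for sequencing) in about 10000 sorted bone marrow cells per reaction. The 4 groups had 2 libraries each: LSK+ WT, LSK+ XistΔ/Δ, LSK- WT and LSK- XistΔ/Δ, all from 4.5-month-old female mice on a mixed 129Sv4/Jae x B6 background. LSK+ cells were negative for the lineage antibodies and positive for SCA-1 and c-KIT, and LSK- cells differed in lacking SCA-1. In XistΔ/Δ mice a floxed Xist gene was deleted from both X chromosomes by a Vav-iCre transgene, which acts across blood cells, so these cells develop without Xist from the stem cell stage on. The lineage cocktail held an antibody to TER-119, which marks maturing red cells, so late erythroid cells were gated out. The labels number the 2 libraries of a group and do not say whether they came from separate mice. Replicates 1 and replicates 2 were sequenced on different instruments, with longer reads in replicates 1.

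LSK+ cells contain the hematopoietic stem cells and multipotent progenitors, and LSK- cells are the myeloid progenitors that follow them, whose branches lead to red cells and megakaryocytes on one side and to granulocytes and monocytes on the other. Accessible sites away from promoters are mostly enhancers, which tend to be cell type specific, whereas many promoters are open in all cells. GATA factors bind the sequence AGATAA or TGATAA. Of these factors, GATA2 acts in stem cells and early progenitors, and GATA1 takes over in the erythroid and megakaryocyte branch.

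The sequences around the summits of 6 members are shown because GATA matches near the summit were more frequent in the members than in the sets they are compared with further on. Each runs over 200 bases centred on the summit of the region's strongest peak, on the plus strand of GRCm38 (mm10), with AGATAA or TGATAA on either strand in capitals. The first 3 are the highest-ranked members at genes of the erythroid, megakaryocyte and mast cell lists. The other 3 were chosen after their values were seen, as members with 2 AGATAA matches from the top 20 by rank (Znfx1 and Gm29295) and from the erythroid list (Sox6).
Car1, chr3:14808367-14808566: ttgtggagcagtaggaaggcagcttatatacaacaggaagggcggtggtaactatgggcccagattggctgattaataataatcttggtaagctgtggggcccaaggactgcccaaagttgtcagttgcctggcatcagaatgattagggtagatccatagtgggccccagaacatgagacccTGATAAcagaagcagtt
Tubb1, chr2:174453779-174453978: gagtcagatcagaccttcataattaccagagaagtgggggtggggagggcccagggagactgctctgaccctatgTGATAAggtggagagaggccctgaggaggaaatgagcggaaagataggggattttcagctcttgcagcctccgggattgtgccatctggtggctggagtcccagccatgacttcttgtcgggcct
Il1rl1, chr1:40429273-40429472: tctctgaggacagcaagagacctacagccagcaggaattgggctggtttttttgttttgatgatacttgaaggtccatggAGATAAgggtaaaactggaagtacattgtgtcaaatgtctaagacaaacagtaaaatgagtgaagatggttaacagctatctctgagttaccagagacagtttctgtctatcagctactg
Znfx1, chr2:167043453-167043652: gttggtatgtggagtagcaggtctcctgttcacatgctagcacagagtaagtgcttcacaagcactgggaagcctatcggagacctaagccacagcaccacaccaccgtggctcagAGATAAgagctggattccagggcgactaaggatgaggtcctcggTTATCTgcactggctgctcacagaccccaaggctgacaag
Gm29295, chr7:71386153-71386352: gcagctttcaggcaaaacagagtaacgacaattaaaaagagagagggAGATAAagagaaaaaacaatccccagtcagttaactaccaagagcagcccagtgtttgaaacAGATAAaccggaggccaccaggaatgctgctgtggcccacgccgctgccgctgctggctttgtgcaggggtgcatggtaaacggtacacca
Sox6, chr7:115895098-115895297: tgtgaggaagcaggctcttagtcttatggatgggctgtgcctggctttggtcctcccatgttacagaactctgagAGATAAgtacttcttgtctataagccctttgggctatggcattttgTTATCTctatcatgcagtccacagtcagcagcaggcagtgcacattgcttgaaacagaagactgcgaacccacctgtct

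The deposited lists, limited to chromosomes 1 to 19 and X, had between 29829 and 82488 peaks in LSK+ libraries and between 37578 and 91590 in LSK- libraries. The most common background pileup of a list, a proxy for sequencing depth, ranged from 0.482 to 1.82 fragments in LSK+ and from 0.992 to 3.87 in LSK- libraries. XistΔ/Δ replicate 1 was the deepest library of each cell type. The weakest peak that still entered the top set had 5 fragments at its summit in LSK+ WT replicate 2, 143 in LSK- XistΔ/Δ replicate 1, and between 12 and 48 in the other 6 libraries. A region counted as absent from a library may therefore have a lower-ranked peak there.

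Many genes of the erythroid list lay next to a member. Each region was assigned to the gene with the closest transcription start site (TSS) when one lay within 3 kb, and to the closest gene body otherwise, so that 1488 of the 22216 genes with any region (6.70%) had at least 1 member and 1255 (5.65%) had at least 1 LSK+ identity region. In the erythroid list, which joins red cell regulators, membrane proteins and heme enzymes, 17 of 41 genes with a region had a member (41.5%) and 4 had an LSK+ identity region. Of the 162 regions assigned to these genes, 20 (12.3%) were members, beside 3.11% over all regions. The list was chosen with earlier results of these data known and gets no test. The share was 25.0% with the strongest 14914 peaks of each library (3.37% of all genes), 61.0% without LSK- XistΔ/Δ replicate 2 (10.4% of all genes) and 4.88% when a top peak had to cover at least 50% of a region to count (2.28% of all genes). Under that last rule the erythroid share was below the 9.09% of the megakaryocyte and mast cell lists, and with replicate 2 libraries only it was 43.9% beside 45.5% in the mast cell list (11.3% of all genes).

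**Figure D1:**
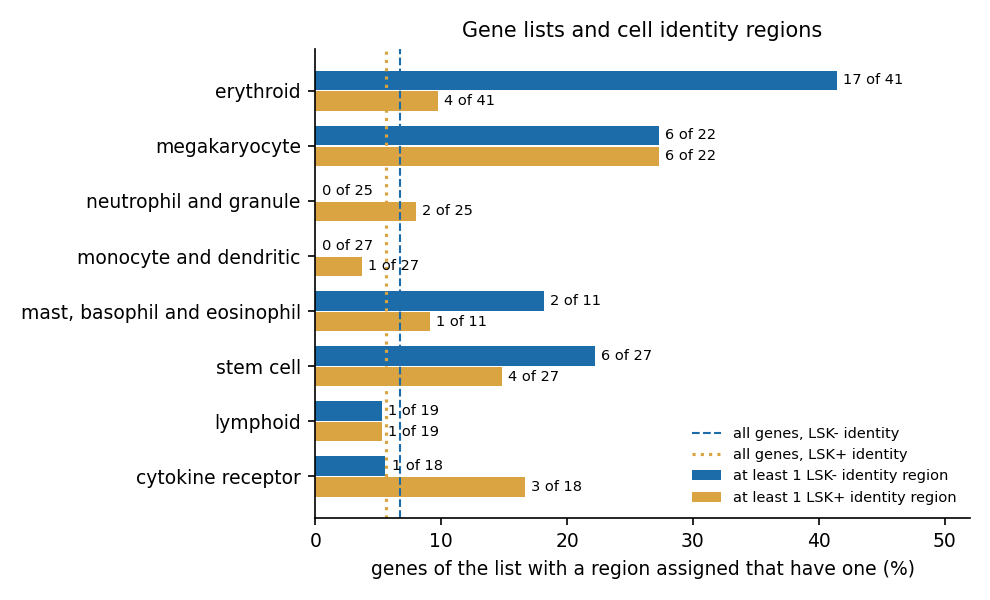
Percent of the genes of each list, among those with a region assigned, that had at least 1 LSK- identity region (blue) or LSK+ identity region (yellow), with the gene counts beside the bars. The dashed and dotted lines give the shares over all genes, 6.70% and 5.65%. The erythroid bar for LSK- identity regions reaches 41.5%, and the neutrophil and monocyte lists have 0 genes with such a region.

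The highest-ranked erythroid member lay at Car1, which encodes a carbonic anhydrase of red cells, and spanned its TSS (chr3:14808068-14808879, ENSMUSG00000027556.15). Ranks are given as percentiles among the top peaks of a library, with 100 for the strongest peak. Car1 reached percentiles of 88.3 and 82.6 in LSK- WT replicates 1 and 2 and of 90.8 and 71.7 in LSK- XistΔ/Δ, with fold enrichments over local background of 12.5, 18.1, 13.05 and 19.8. No deposited LSK+ list held a peak there at any rank. The same held for Trim10, a gene of terminal erythroid maturation, whose TSS region (chr17:36869119-36869915) reached percentiles of 87.6 and 70.2 in WT against 83.9 and 59.999 in XistΔ/Δ.

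Heme synthesis genes also had members. Alad encodes the second enzyme of the pathway, and its region 2453 bp from a TSS (chr4:62516641-62517441) reached percentiles of 91.4 and 85.1 in WT against 95.9 and 65.7 in XistΔ/Δ. LSK+ peaks below the top set were listed at Alad in WT replicate 1 and XistΔ/Δ replicate 1. Uros, a later enzyme of the pathway, had an intronic member at percentiles of 68.0 and 68.0 in WT against 76.4 and 24.4 in XistΔ/Δ, and Slc25a38, the mitochondrial glycine carrier that feeds the pathway, one at 44.0 and 44.7 in WT against 69.6 and 36.2 in XistΔ/Δ. Both lacked any LSK+ peak.

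Genes of the red cell membrane and its skeleton with members included Kel, Ank1 (ankyrin) and Aqp1 (a water channel). Kel, with its member over a TSS (chr6:41704057-41704674), had percentiles of 78.4 and 54.1 in WT against 79.2 and 43.6 in XistΔ/Δ. A peak below the top set was listed there in LSK+ XistΔ/Δ replicate 1. The intergenic Aqp1 region (chr6:55358721-55359389) had 78.9 and 70.5 in WT against 84.01 and 44.5 in XistΔ/Δ. Ank1 had 2 members, one over a TSS and one in an intron. The TSS member of Ank1 (chr8:23034803-23035465) had peaks below the top set in the 3 longer LSK+ lists, while the intronic one had none.

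Regulators of the erythroid branch made up most of the rest. Sox6, a repressor of embryonic globin genes, had 3 members, and its strongest (chr7:115894833-115895486, in an intron 48693 bp from a TSS) reached percentiles of 62.4 and 62.7 in WT against 70.6 and 54.9 in XistΔ/Δ. Zfpm1, the GATA1 cofactor FOG1, had an intronic member (chr8:122321377-122322496) at 58.4 and 65.5 in WT against 80.2 and 69.3 in XistΔ/Δ. Bcl11a, a globin repressor that also acts in lymphocytes, had an intronic member at 89.1 and 62.5 in WT against 90.2 and 62.7 in XistΔ/Δ, and E2f2, a cell cycle factor used in red cell precursors, one at 68.1 and 58.2 in WT against 81.5 and 55.9 in XistΔ/Δ. Lower-ranked LSK+ peaks were listed at the E2f2 member in the 3 longer LSK+ lists, with folds of 7.21, 10.1 and 10.6. The Zfpm1 and Bcl11a members had one in LSK+ XistΔ/Δ replicate 2, and the Sox6 members had none. Other erythroid genes with a member were Cldn13, Tspan33 and Xpo7. The 4 genes of the list with an LSK+ identity region all had members too. Zfpm1 and Bcl11a each had 2 LSK+ identity regions beside 1 member. Ank1 and Tspan33 each had 1 LSK+ identity region. No member was assigned to the other erythroid genes with a region, among them Klf1 and Epor, which each had a region held by all 8 libraries. Across the list, 25 of the 41 genes with a region had one in all 8 libraries, beside 11316 of all 22216 genes with a region.

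**Figure D2:**
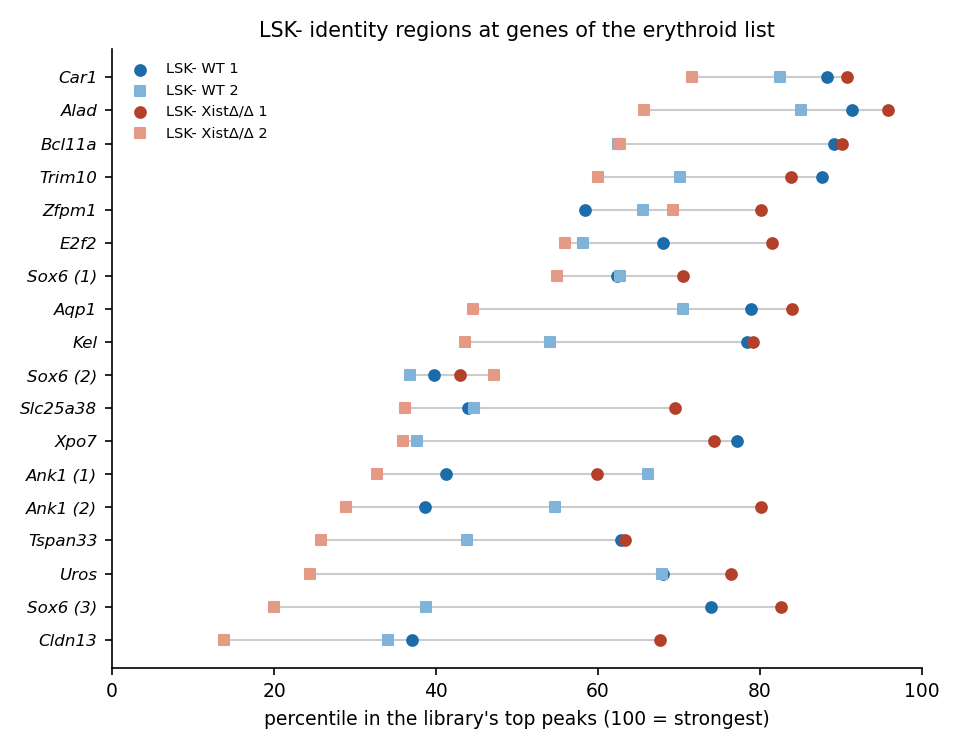
Percentile of 18 of the 20 LSK- identity regions assigned to genes of the erythroid list in each of the 4 LSK- libraries (circles, replicates 1; squares, replicates 2; blue, WT; red, XistΔ/Δ), ordered by the lowest of the 4 values. Numbers in brackets tell apart members of the same gene. Car1 and Alad stay at or above 65.7 in every library, and Cldn13 falls to 13.8 in XistΔ/Δ replicate 2.

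The megakaryocyte list had members at 6 of 22 genes (27.3%) and LSK+ identity regions at 6. Of its 88 regions, 8 (9.09%) were members. Tubb1, the platelet tubulin, had the highest-ranked member (chr2:174453479-174454218, 2784 bp from a TSS), with percentiles of 85.7 and 64.9 in WT against 84.1 and 52.3 in XistΔ/Δ. Runx1, a factor of stem cells and megakaryocytes, had an intronic member at 70.4 and 63.3 in WT against 76.8 and 50.8 in XistΔ/Δ (chr16:92764614-92765301), and Pf4, a platelet chemokine, a TSS-proximal one (2866 bp) at 76.9 and 44.6 in WT against 81.2 and 52.3 in XistΔ/Δ (chr5:90775379-90776109). Rab27b, of platelet granules, had an intronic member at 50.2 and 33.8 in WT against 46.7 and 44.7 in XistΔ/Δ. Lower-ranked LSK+ peaks were listed at the Tubb1 member in the 3 longer LSK+ lists and at the Pf4 member in both XistΔ/Δ lists. This Runx1 member had one in LSK+ XistΔ/Δ replicate 2, and the Rab27b member had none. Fli1 and Vwf completed the 6 genes. Runx1 and Vwf also had 1 LSK+ identity region each.

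The granulocyte and monocyte lists had no gene with a member: 0 of 25 neutrophil and granule genes and 0 of 27 monocyte and dendritic genes with a region, beside 6.70% of all genes. At lists of this size that share is 1 or 2 genes, so the zeros are small counts and nothing is read from them. Of the 54 regions at neutrophil genes, 12 were held by 1 LSK- library and no LSK+ library, 6 by 2 and 1 by 3. The monocyte list had 6, 8 and 4 regions of this kind out of 80. For all regions the counts were 5263, 2878 and 1674 of 52052. An LSK+ identity region was assigned to 2 neutrophil genes and 1 monocyte gene. The zeros changed with the processing. With all deposited peaks the shares were 6.67% of neutrophil and 3.70% of monocyte genes (7.56% of all genes), with the strongest 14914 peaks 0% and 5.26% (3.37% of all genes), and with protein-coding genes only 0% and 7.69% (9.22% of all genes). In that last setting the closest coding gene of the member at Gm13479 was Zeb2, a gene of the monocyte list. With replicate 2 libraries only, a choice added after the data were seen, 24.0% and 18.5% of these genes had a region of this kind (11.3% of all genes), and with replicate 1 libraries only 8.00% and 18.5% (18.98% of all genes). Leaving out LSK- XistΔ/Δ replicate 2 gave 4% and 3.70% (10.4% of all genes). The monocyte share was 7.41% without LSK+ XistΔ/Δ replicate 2 (8.07% of all genes), 3.70% without LSK- WT replicate 2 (8.08%) and 3.70% without LSK- XistΔ/Δ replicate 1 (7.18%).

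Smaller counts came from the other lists. The mast cell, basophil and eosinophil list had members at 2 of 11 genes: over a TSS of Il1rl1, the interleukin-33 receptor (chr1:40428985-40429631), at percentiles of 55.6 and 28.1 in WT against 72.3 and 13.8 in XistΔ/Δ, and in an intron of Mitf, a mast cell regulator, at 46.4 and 6.20 in WT against 50.5 and 18.6 in XistΔ/Δ. The Mitf member had a lower-ranked peak in 2 LSK+ lists, and Mitf also had 1 LSK+ identity region. The stem cell list had members at 6 of 27 genes (22.2%) and LSK+ identity regions at 4. Of its 157 regions, 8 (5.096%) were members, beside 3.11% over all regions. The gene share was 8.33% with the strongest 14914 peaks of each library (3.37% of all genes). It was 0% when a top peak had to cover at least 50% of a region (2.28% of all genes). Without 1 library it ran from 22.2% to 37.04% (6.94% to 10.4% of all genes). Among the highest members of the stem cell list were those at Egr1 (55.2 and 50.3 in WT, 57.1 and 52.3 in XistΔ/Δ), Mllt3 (85.7 and 47.8 in WT, 90.3 and 52.6 in XistΔ/Δ) and Fgd5 (73.5 and 38.7 in WT, 71.0 and 48.0 in XistΔ/Δ). Each of these 3 had a lower-ranked peak in 2 LSK+ lists. The lymphoid list had 1 of 19 genes, Ikzf1, which also acts in other blood cells, at 62.7 and 58.5 in WT against 69.1 and 47.1 in XistΔ/Δ, and the cytokine receptor list 1 of 18, Il1rl1 again. These last 2 shares, 5.26% and 5.56%, lie near the 6.70% over all genes.

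Sequence was not used in the selection. AGATAA on either strand lay within 100 bp of the summit in 54.7% of the members, beside 14.4% of all regions on chromosomes 1 to 19, 6.47% of the LSK+ identity regions and 6.96% of the regions in all 8 libraries. Promoters have fewer such matches, so the comparison was repeated without TSS-proximal regions, where the shares were 55.1% of 1311 members, 18.3% of 32681 regions, 6.69% of 1091 LSK+ identity regions and 13.5% of 4688 regions in all 8 libraries. Among the 307 TSS-proximal members the share was 52.8%, beside 7.87% of all TSS-proximal regions. The median GC content was 49.5% in distal members and in all distal regions. In TSS-proximal members it was 50.5%, against 60% in all TSS-proximal regions, so the TSS-proximal shares compare windows of unlike GC content. Over the alternatives that left out 1 library each, the share of members with AGATAA ran from 48.4% to 56.8%. With TGATAA counted as well, an addition made after the data were seen, 75.4% of members had a match, beside 21.5% of all regions and 11.3% of LSK+ identity regions. More than 1 AGATAA was present in 168 members (2 matches) and 13 members (3 or more). Together these made up 11.2% of members, beside 2.03% of all regions, 0.0743% of LSK+ identity regions and 0.509% of regions in all 8 libraries.

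**Figure D3:**
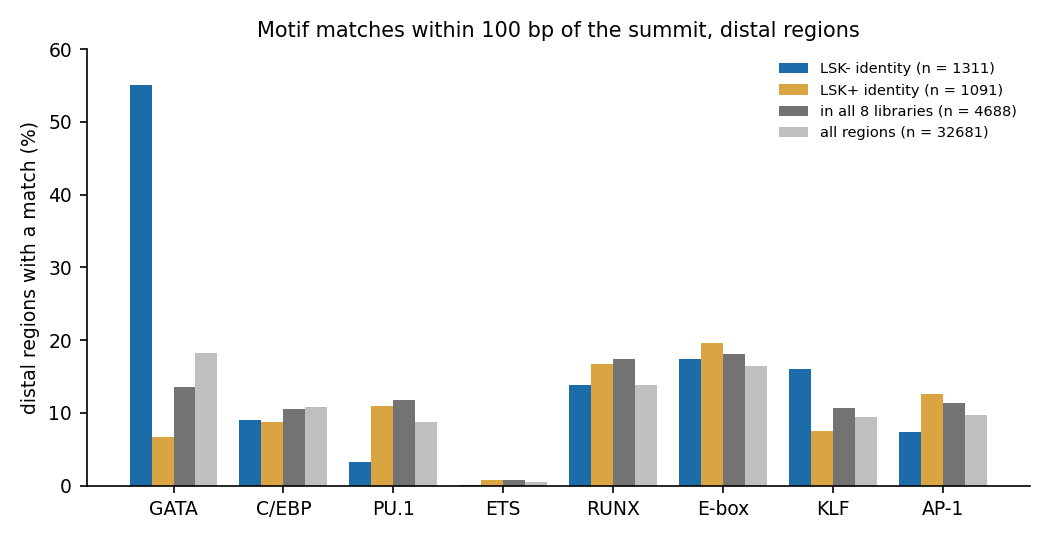
Percent of distal regions (no TSS within 3 kb) with at least 1 match of each of 8 motifs within 100 bp of the summit, for LSK- identity regions, LSK+ identity regions, regions in all 8 libraries and all regions on chromosomes 1 to 19. The GATA bar of the LSK- identity regions stands at 55.1%, against 6.69% to 18.3% in the other sets.

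The GATA matches were gathered at the summit. Of the 1610 AGATAA matches within 300 bp of the members' summits, 45.9% lay within 50 bp of it, compared with 27.4% of those in all regions and 11.5% in LSK+ identity regions. The share with a match also fell with the number of LSK+ libraries that shared a region. Among regions held by all 4 LSK- libraries, it was 54.7% with 0 LSK+ libraries, 27.7% with 1, 19.3% with 2, 13.2% with 3 and 6.96% with 4. Without TSS-proximal regions the same order ran 55.1%, 29.0%, 22.4%, 15.5% and 13.5%.

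**Figure D4:**
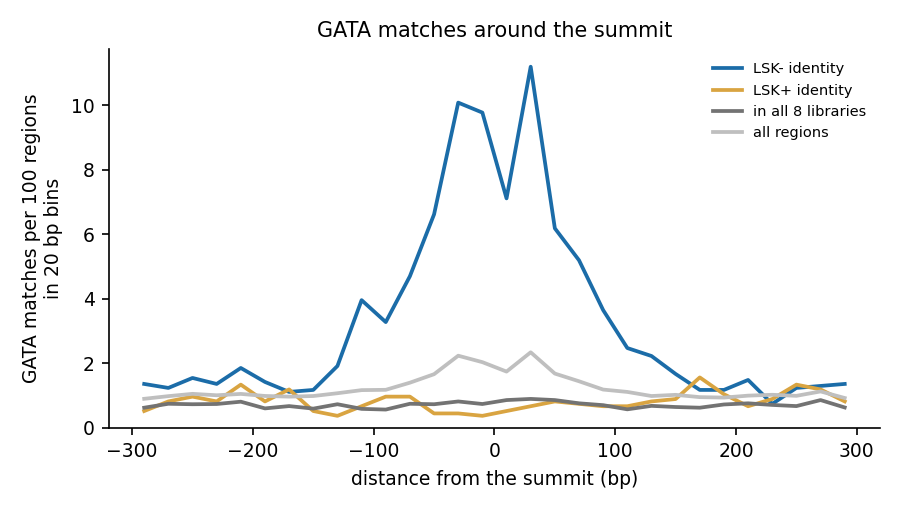
Number of AGATAA matches per 100 regions in 20 bp bins, against the distance of the match from the summit in bp, for the same 4 sets with promoters included. The LSK- identity regions reach 11.2 matches per 100 regions in the bin centred at 30 bp from the summit, and the highest bin of any other set is 2.34.

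KLF motifs (CCNCACCC, bound by KLF1 in red cells) were present in 16.1% of distal members, beside 9.46% of all distal regions and 7.52% of distal LSK+ identity regions. PU.1 motifs (GAGGAAGT, the factor of the granulocyte, monocyte and lymphoid branches) went the other way, with 3.28% of distal members, 8.80% of all distal regions and 10.9% of distal LSK+ identity regions. AP-1 motifs (TGANTCA) were at 7.40%, 9.74% and 12.6% in the same order, and C/EBP motifs (TTGCNNAA), bound by the granulocyte factors, at 9.001%, 10.9% and 8.71%. RUNX (TGTGGTT) and E-box (CAGCTG) motifs were at 13.8% and 17.4% of distal members, near the 13.8% and 16.5% of all distal regions. The ETS motif (CCGGAAGT), common at promoters, was found in 0.153% of distal members and 0.523% of all distal regions. A GATA and a KLF match occurred together in 126 members (7.79%), while 596 (36.8%) had neither. Taken singly, 54.7% of all members had a GATA match and 16.3% a KLF match. Joint matches were not counted in the other sets, so no pairing of the motifs is read from these counts. All motifs were searched as letters on both strands within 100 bp of the summit, and a match is not evidence that a factor was bound.

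Within the erythroid list 8 of 20 members had AGATAA, beside 54.7% of all members, a small count from which no difference is read. Such matches were found in members of all ranks: 50.4% of the 405 members with the lowest ranks, 55.2% and 54.95% of the next groups of 404, and 58.3% of the 405 with the highest. They were present in 61.3% of the 736 members without any LSK+ peak and in 49.2% of the 882 with at least 1 lower-ranked LSK+ peak.

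The members were mostly distal. A TSS within 3 kb was found for 307 (18.97%), while 829 (51.2%) lay in introns, 435 (26.9%) between genes and 47 (2.90%) in exons. LSK+ identity regions had nearly the same proportion of TSS-proximal regions, 18.9%, and both were below the 37.2% of all regions and the 66.4% of regions in all 8 libraries. A TSS lay inside the region itself for 64 members (3.96%), beside 6.25% of LSK+ identity regions, 23.4% of all regions and 58.1% of regions in all 8 libraries. With protein-coding genes only, the TSS-proximal share of members was 9.15%, and with a limit of 1 kb it was 8.78%. The distal members had their closest TSS at a median of 15.7 kb (interquartile range 8.22 to 30.5 kb), and 35 members lay over 100 kb away. Member regions had a median width of 693.5 bp, between the 621 bp of all regions and the 930 bp of regions in all 8 libraries. Per chromosome, members made up between 2.55% (chromosome 15) and 3.73% (chromosome 16) of the regions.

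The ranks were moderate. The median percentile of the members was 60.7 and 42.6 in LSK- WT replicates 1 and 2, and 66.6 and 32.4 in LSK- XistΔ/Δ replicates 1 and 2. Regions in all 8 libraries had medians between 72.6 and 74.8 in the same libraries. The top 25% of a library's peaks held 23.2% and 32.3% of the members in WT and XistΔ/Δ replicates 1 but 1.73% and 0.803% in replicates 2. Median fold enrichments of the members were 11.8 and 9.47 in WT against 13.3 and 12.3 in XistΔ/Δ, from median summit pileups of 63, 25, 172 and 37 fragments. The median lowest percentile was 24.3 in TSS-proximal and 23.8 in other members.

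**Figure D5:**
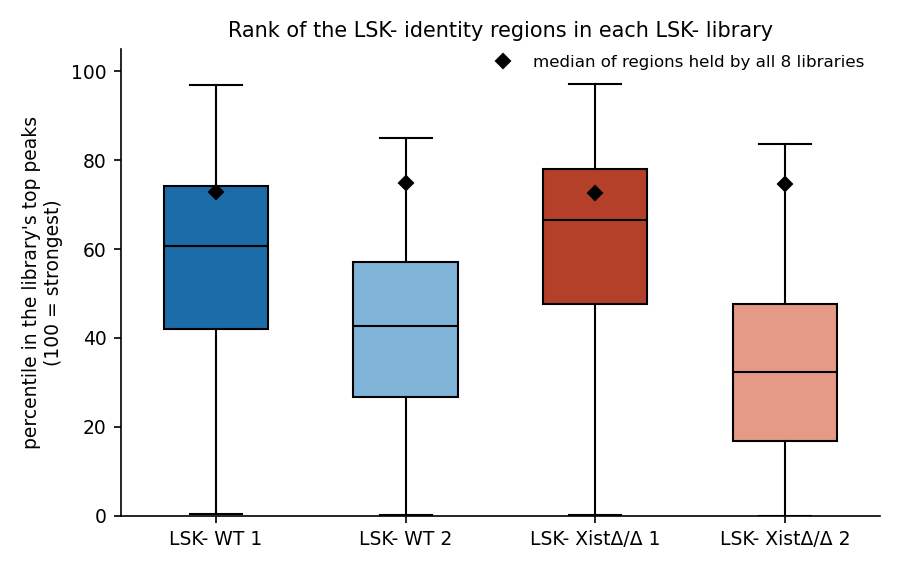
Percentile of the 1618 LSK- identity regions among the top peaks of each LSK- library; boxes span the quartiles with the median as a line, whiskers reach the lowest and highest member, and diamonds mark the median of the regions held by all 8 libraries. The boxes of replicates 1 (medians 60.7 and 66.6) lie above those of replicates 2 (42.6 and 32.4) in both genotypes.

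Ranks of the members in the 4 LSK- libraries took part in the selection, so the genotypes are described here without a test. The mean of the library medians was 51.7 ± 12.8 for WT libraries and 49.5 ± 24.2 for XistΔ/Δ libraries (SD, 2 per group), a difference of -2.18 (XistΔ/Δ minus WT) that is smaller than either SD. Within replicates 1 the XistΔ/Δ median was 5.86 higher, and within replicates 2 it differed by -10.2, so the direction turned with the replicate number. Leaving out 1 LSK- library moved the difference anywhere from -17.8 to 18.5. Both XistΔ/Δ libraries ranked a member above both WT libraries in 67 cases (4.14%) and below both in 71 (4.39%), while over all regions held by 4 LSK- libraries these shares were 7.23% and 10.4%. The replicate number separated far more members. Both replicates 1 were above both replicates 2 in 1109 members (68.5%) and below them in 75 (4.64%), beside 31.3% and 31.6% of all regions held by 4 LSK- libraries. Sequencing instrument, read length and depth all moved with the replicate number, and their part in this was not tested.

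The top 20 members by their lowest percentile over the 4 LSK- libraries were 10 intronic, 5 intergenic and 5 TSS-proximal regions, and 11 of them had AGATAA. First was an intron of Hagh, a glyoxalase gene (chr17:24858820-24859485), with percentiles of 91.0 and 84.6 in WT against 89.0 and 83.6 in XistΔ/Δ, folds of 16.6 and 22.2 in WT against 16.2 and 27.3 in XistΔ/Δ, and 117, 81, 305 and 118 fragments at the summit. An intron of Ak7, an adenylate kinase gene (chr12:105759810-105760487), followed with percentiles of 96.1 and 82.2 in WT against 94.1 and 78.5 in XistΔ/Δ. A region 3257 bp from a TSS of the nuclear envelope gene Sun1 (chr5:139196717-139197380) varied least of these first 4, with 79.8 and 77.3 in WT against 80.3 and 80.9 in XistΔ/Δ. The intronic member of the kinase gene Tbk1 (chr10:121568844-121569668) had the highest percentile in XistΔ/Δ replicate 1 among these 4, with 93.5 and 82.9 in WT against 97.0 and 76.5 in XistΔ/Δ. All 4 had a lower-ranked peak in at least 1 LSK+ list.

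The others had lowest percentiles from 70.6 to 76.1 and included regions at Gm13479, Dapp1, Gm45299, Tpra1, Gm20388, Gsg1l, Rpp25, Samd14, Car1, Dpy19l1, Znfx1, Prkce, Gm29295, 5430401H09Rik and Nfkb1. Samd14, a gene with a role in red cell regeneration, had its member 2023 bp from a TSS (chr11:95011902-95012645), at 85.2 and 79.2 in WT against 89.96 and 72.1 in XistΔ/Δ. Znfx1, whose sequence with 2 AGATAA matches is shown above, spanned a TSS and had no LSK+ peak, at 76.0 and 76.5 in WT against 92.8 and 71.1 in XistΔ/Δ. The gene Gm13479 is a long intergenic noncoding RNA, and the closest protein-coding TSS to its member was that of Zeb2, a repressor needed in blood progenitors, 316.5 kb away. Of the 20, 5 lacked any LSK+ peak and 8 had a lower-ranked peak in 3 LSK+ lists.

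At the edge of the selection the last 2 members inside were a region near A930028N01Rik, with a percentile of 0.0235 in XistΔ/Δ replicate 2 but 62.7, 14.6 and 67.2 in the others, and one near Gm30928, with 0.0805 in WT replicate 2 but 43.6, 33.1 and 12.96 in the others. The nearest regions outside had all 4 LSK- libraries and 1 LSK+ top peak at the bottom of its list: an intron of Foxo3 (LSK+ WT replicate 2, percentile 0.0402) and a region at Gm44786 (LSK+ XistΔ/Δ replicate 2, percentile 0.0872). In all, 602 regions missed the selection through a top peak in 1 LSK+ library.

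Of the members, 736 (45.5%) had no LSK+ peak in any deposited list, and the other 882 had a peak below the top 29829 in at least 1. Such peaks were listed for 30.4% of members in LSK+ WT replicate 1, 45.5% in XistΔ/Δ replicate 1 and 43.9% in XistΔ/Δ replicate 2. LSK+ WT replicate 2 had 0 because its whole list is its top set. With that 0 included, the mean share was 15.2% in WT and 44.7% in XistΔ/Δ, a difference of 29.5 percentage points that gets no test because 1 of the 4 values is fixed. The XistΔ/Δ lists had 52659 and 33355 peaks below the top set and the WT lists 33544 and 0, so list length and genotype cannot be told apart here. Without LSK+ WT replicate 2 the difference was 13.7 points. In bulk libraries, fewer cells with an open region and less opening per cell both lower a peak's rank and cannot be told apart.

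Following WT cells into XistΔ/Δ cells shows how much of the WT pattern the selection kept. In WT, 3895 regions were held by both LSK- and no LSK+ library. Of these 1618 (41.5%) kept the pattern in XistΔ/Δ and are the members, 1183 (30.4%) were missing from 1 LSK- XistΔ/Δ library, 129 (3.31%) were missing from both, 696 (17.9%) had a top peak in LSK+ XistΔ/Δ cells, and 269 (6.91%) had both changes. In the other direction, 2636 regions had the pattern in XistΔ/Δ and 61.4% of them had it in WT. The same following was not done for all regions or between replicates of a genotype, so no base share stands beside these counts. Nothing about genotype is read from them. The count of members rose to 2679 without LSK- XistΔ/Δ replicate 2, whereas it was between 1681 and 1970 when any other library was left out.

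Few members lay close to another one. With gaps of at most 10 kb, 60 members (3.71%) lay in 30 clusters of 2, compared with 2.38% of LSK+ identity regions and 22.2% of regions in all 8 libraries, which are more numerous. By their lowest percentile the first 5 clusters were at Sdcbp and Nsmaf (chr4:6404954-6416177), Gm33728 (chr10:21221004-21229005), Rnf145 (chr11:44508856-44513308), AC154178.1 (chr17:74954574-74963630) and Gm8013 (chr5:96919065-96921489). With gaps of up to 100 kb, tried after the data were seen, 530 members (32.8%) fell into 241 groups of up to 5, beside 21.3% of LSK+ identity regions.

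Most genes with a member had a single one (1373 of 1488), 102 had 2, 12 had 3 and 1 had 5. The gene with 5 was Gm33728, a noncoding RNA gene between the protein-coding genes Myb and Hbs1l, where enhancers of Myb are known. Its members lay 35.6, 60.02, 67.4, 80.7 and 107.8 kb from the closest Myb TSS on that side. The one at 60.02 kb (chr10:21221004-21222129) ranked highest, from 61.2 to 91.0 over the 4 LSK- libraries, and had 2 AGATAA matches. Of 7 regions assigned to Gm33728, 5 were members.

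Genes with 3 members came next in the order of their best region. Ranbp10, which binds microtubules in platelets, had 3 intronic members among 5 regions, and the best (chr8:105820793-105821572) ran from 69.7 to 96.5. Gm37240, annotated as protein-coding and lying between the TSSs of Arfip1 and Fbxw7, had 3 intronic members from 15.5 to 88.3, and Kalrn, an exchange factor for small GTPases, 3 intronic members from 22.9 to 87.2. Sox6 had the 3 members described above. At 9830144P21Rik, Schip1 and Sh3glb1 the members ran from 14.4 to 76.0, from 2.26 to 75.8 and from 8.25 to 76.9. All 3 regions assigned to 9830144P21Rik were members.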

How the data were processed

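ATAC-seq peak lists of 8 libraries (4 groups of 2) were used. The authors aligned the reads to mm10 with Bowtie2 2.3.5.1, removed reads with mapping quality under 30 and called peaks per library with MACS2 2.2.7.1 at a q-value of 0.01. The deposited lists give for each peak a fold enrichment (a ratio to the local background) and, per the files, the −log10 of its p-value, as the authors' MACS2 run wrote them, plus the summit offset. A shift of reads for Tn5 binding or removal of duplicates was not stated for these lists, and fold and p are compared within a library only.

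Peaks on chromosomes 1 to 19 and X were ranked by −log10 p. Overlap meant at least 1 bp. Genes came from GENCODE M21 basic (GRCm38), and in each chromosome the last peak ended within the reference length. Summit pileups and backgrounds were solved from fold and −log10 p, to a relative tolerance of 0.0001 for 100% of peaks, after tests on simulated data. They measure depth per peak, and read counts were not analysed here. Motifs were searched in GRCm38 with pysam 0.24.0, and all else was computed in Python 3.11.15 with pandas 2.3.3. Library values are given by genotype without a p-value: exact permutation tests were run but are not used, since the selection used the LSK- ranks and 1 LSK+ value is 0 by construction. The genes and regions named are the 20 members with the highest lowest percentile, up to 4 members per gene list (1 per gene), the 5 first clusters, the 8 genes with most members, and the 2 regions on each side of the threshold. Other erythroid genes with members are named beside them. Some of the genes this rule names are not reported here. The members, gene lists and motifs were chosen with earlier results of these data known. Alternatives were another ranking, list size, overlap, annotation, gap and window, and leaving out each library.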

Additional observations from a re-analysis of the deposited data

How the results depend on the processing

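The number of members was 1522 when peaks were ranked by fold, 555 with the strongest 14914 peaks of each library, 2571 with all deposited peaks, 522 with a cover of 50% of the region by a top peak, 736 without any LSK+ peak, 5351 with replicate 1 libraries only and 2861 with replicate 2 libraries only, the last 2 added after seeing the data. Leaving out 1 library gave 1681 to 2679 members, a rule that asks for fewer libraries. The TSS-proximal share was 16.1% by fold, 25.2% with the shorter lists, 16.7% with all peaks, 8.78% at 1 kb, 9.15% with protein-coding genes, 21.1% in replicates 2 and 17.7% to 20.4% without 1 library. The clustered share was 2.56%, 2.16%, 9.06% and 1.15% by fold, shorter lists, all peaks and 50% cover, 1.98% and 8.84% at gaps of 5 and 20 kb, and 3.79% to 7.32% without 1 library. Erythroid genes with a member made up 25.0% with shorter lists, 4.88% with 50% cover, 61.0% in replicates 1, and 41.5% to 61.0% without 1 library. The shares of all genes were 3.37%, 2.28%, 18.98% and 6.94% to 10.4% in the same order. In replicates 1 the stem cell list had 48.1%, and the megakaryocyte and mast cell lists 45.5% each. The monocyte, cytokine receptor, lymphoid and neutrophil lists had 18.5%, 16.7%, 10.5% and 8.00% there. GATA matches were found in 48.5% with shorter lists, 50.0% with 50% cover, 48.1% and 37.1% in replicates 1 and 2, 39.2% in 100 bp windows, 75.4% with TGATAA added, and 48.4% to 56.8% without 1 library. Over all regions on chromosomes 1 to 19 the share was 8.95% in 100 bp windows and 21.5% with TGATAA added. The genotype difference in rank turned to 11.3 with all peaks and ranged from -17.8 to 18.5 without 1 library, with 6.56 and 18.5 where LSK- WT replicate 1 or LSK- XistΔ/Δ replicate 2 was left out. The causes were not tested. With the replicate number as a block (replicate block, sign flips within pairs), the rank difference was -2.18 and the difference in lower-ranked LSK+ peaks 29.5 points. These equal the values without a block by construction, since each replicate number has 1 library per genotype, so they are no check. Within replicates 1 and 2 the difference in lower-ranked LSK+ peaks was 15.1 and 43.9 points. The differences between replicates 1 and 2 in WT and XistΔ/Δ correlated over members with r = 0.224, a description of 1618 regions of the same 4 libraries.

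With 2 libraries a group, no genotype test can reach 0.05. Ranks within lists carry no absolute accessibility, and the depth of a library sets how weak a peak can be listed. LSK+ WT replicate 2, with the lowest background pileup (0.482 fragments), set the list size for all.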

Other observations

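The X chromosome was outside the selection, yet 26 of its 1186 regions (2.19%) showed the same pattern of 4 LSK- and 0 LSK+ libraries, and 18 of the 26 (69.2%) had AGATAA within 100 bp of the summit, beside 13.9% of all X-linked regions. One lay in an intron of Gata1, the erythroid and megakaryocyte regulator (chrX:7971060-7971786), with percentiles of 64.7 and 49.2 in LSK- WT replicates 1 and 2 and of 66.6 and 45.4 in LSK- XistΔ/Δ. Another lay 2089 bp from a TSS of Alas2, the first enzyme of heme synthesis in red cells (chrX:150549548-150550314), with 36.2 and 62.9 in WT against 90.1 and 54.8 in XistΔ/Δ. Both had 1 AGATAA match. The highest-ranked of the 26 was assigned to Gm23867 (80.8 and 70.05 in WT, 86.4 and 55.1 in XistΔ/Δ).

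Another way of counting, added after the data were seen, took all regions from 50 kb before the first to 50 kb after the last TSS of a gene. By it, 21 of 43 erythroid genes had a member and 9 had an LSK+ identity region. For the megakaryocyte list the counts were 10 and 5 of 25, for the neutrophil list 2 and 4 of 30, and for the monocyte list 3 and 0 of 27. The stem cell list had 5 and 7 of 30, the reverse order of its counts by assigned gene. Counts were 3 and 1 of 22 for the mast cell list, 3 and 3 of 28 for the lymphoid and 2 and 3 of 19 for the cytokine receptor list. Over all 20807 autosomal protein-coding genes, 11.1% had a member and 8.22% an LSK+ identity region within 50 kb of a TSS.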
